A study of Mus musculus with 6 samples.

Results

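The genes described here are the sensors of the unfolded protein response (UPR) and the eIF2 alpha kinases of the mouse, with the transcription factor, the substrate and the phosphatase subunit that act next to them. They are Ern1, Atf6, Atf6b, Xbp1, Eif2ak1, Eif2ak2, Eif2ak3, Eif2ak4, Eif2s1 and Ppp1r15b. They were chosen by gene symbol. All 10 were among the 49315 genes of the count table, and all 10 passed the filter on low counts that left 12274 genes for testing. The data are poly(A) RNA-seq libraries of RAW264.7, a transformed mouse macrophage line labelled as wild type (WT). In 3 libraries the cells had been treated with SKI-II at 4 μg/mL and in 3 with the vehicle DMSO, in both cases for 24 h and without infection. SKI-II is a compound best known for inhibiting sphingosine kinases, and the study asked how it acts on macrophages, with PERK among the proteins it followed. No group carried a genetic change relative to the other, and a single cell line stands for macrophages throughout. The labels do not say whether the 3 libraries of a group came from separate cultures, so p-values measure the spread between these libraries only.

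The UPR is the response of cells to proteins that fail to fold in the endoplasmic reticulum (ER). It is read by 3 kinds of sensor in the ER membrane. IRE1 alpha, the product of Ern1, is a kinase and an endoribonuclease that removes a short intron from the Xbp1 mRNA and so allows the active factor XBP1 to be made. ATF6, with its homologue ATF6 beta, is a transcription factor held in the ER membrane until it moves to the Golgi and is cut by the proteases S1P and S2P. PERK, the product of Eif2ak3, phosphorylates the alpha subunit of the initiation factor eIF2, which lowers translation in general and favours that of ATF4. The other kinases of eIF2 alpha answer to other signals: HRI (Eif2ak1) to haem shortage and mitochondrial stress, PKR (Eif2ak2) to double-stranded RNA, and GCN2 (Eif2ak4) to uncharged tRNA. CReP, the product of Ppp1r15b, and GADD34, the product of Ppp1r15a, bring protein phosphatase 1 to eIF2 alpha and reverse the modification. These proteins are largely switched by cleavage, splicing or phosphorylation, which counts of whole genes do not measure.

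After SKI-II, the mRNA of the sensor Ern1 was higher, and the mRNAs of Atf6b, the kinase Eif2ak2 and the phosphatase subunit Ppp1r15b were lower. The other 6 mRNAs, that of PERK among them, did not pass the test. In numbers, 1 of the 10 was called higher and 3 were called lower at an adjusted p below 0.05 (edgeR quasi-likelihood F test, adjusted over all tested genes). Of all tested genes, 18.4% were called higher and 19.7% lower, and the counts among the 10 are near those shares. When a log2 fold change past 1, up or down, was asked for as well, the call held for Eif2ak2 alone, against 15.7% of all tested genes. The groups did not overlap in normalized counts for 7 of the 10, against 50.3% of all tested genes. Over the 10 genes the median log2 fold change was -0.15, and over all tested genes it was 0.00. The median absolute log2 fold change was 0.34 for the 10 and 0.41 for all tested genes. In bulk RNA a lower mRNA in each cell and fewer cells that carry it cannot be told apart.

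**Figure D1:**
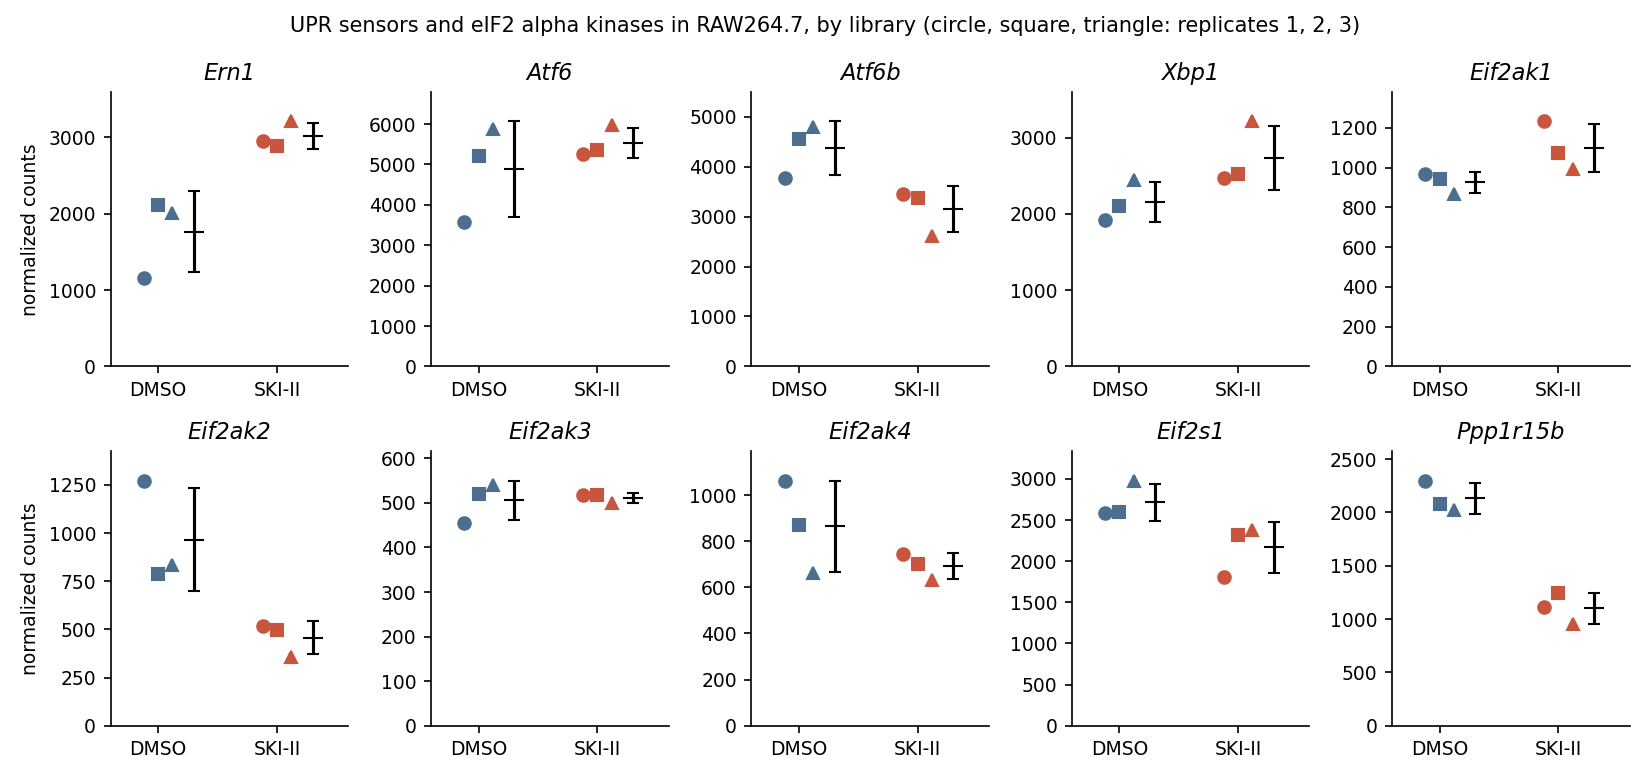
Normalized counts (y axis, from 0, a scale of its own for each gene) of the 10 mRNAs in the 3 DMSO (blue) and 3 SKI-II (red) libraries. Circles, squares and triangles are replicates 1, 2 and 3, and bars are the mean ± SD. Ern1 lay at 1154 to 2121 in DMSO and at 2885 to 3211 in SKI-II, while Eif2ak3 lay within the same range in both.

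Ern1 (ENSMUSG00000020715, GRCm38 chr11:106394650-106487852, minus strand) encodes the sensor IRE1 alpha. It had 1154, 2121 and 2014 normalized counts in DMSO replicates 1 to 3, and 2951, 2885 and 3211 in the SKI-II libraries. DMSO replicate 1 was the lowest of the 6, and every SKI-II library was above every DMSO library. The log2 fold change was 0.78 (SE 0.20, 95% interval 0.32 to 1.23, adjusted p = 0.0136), which is 1.71-fold. Without DMSO replicate 1 it was 0.53 (adjusted p = 0.0106).

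Xbp1 (ENSMUSG00000020484, chr11:5520659-5525893, plus strand) encodes the factor that IRE1 alpha splices into its active form. Its counts join the spliced and the unspliced mRNA. They were 1917, 2099 and 2441 in DMSO against 2473, 2516 and 3212 in SKI-II, with the lowest SKI-II library just above the highest DMSO library. A log2 fold change of 0.35 (SE 0.14, interval 0.02 to 0.67) did not pass the adjusted test (adjusted p = 0.0871). It passed without DMSO replicate 3, at 0.44 (adjusted p = 0.0470), and was smaller without DMSO replicate 1, at 0.25 (adjusted p = 0.229), and without SKI-II replicate 3, at 0.21 (adjusted p = 0.285).

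Atf6 (ENSMUSG00000026663, chr1:170704674-170867771, minus strand) showed no difference beyond the spread of its libraries. It had 3574, 5211 and 5870 normalized counts in DMSO against 5271, 5364 and 5965 in SKI-II. The 3 SKI-II libraries lay close together, between DMSO replicates 2 and 3 or just above them. Its log2 fold change was 0.18 (interval -0.22 to 0.58, adjusted p = 0.460), and it turned to -0.017 (adjusted p = 0.937) without DMSO replicate 1.

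Atf6b (ENSMUSG00000015461, chr17:34647146-34655074, plus strand), the homologue of Atf6, had 3777, 4552 and 4797 normalized counts in DMSO against 3461, 3374 and 2619 in SKI-II. All SKI-II libraries were below all DMSO libraries, with a narrow gap between the groups. The difference was -0.47 on the log2 scale (SE 0.15, interval -0.81 to -0.14, adjusted p = 0.0301). This call depended on single libraries: the adjusted p was 0.104 without DMSO replicate 2, 0.0761 without DMSO replicate 3, 0.0591 without SKI-II replicate 2 and 0.0933 without SKI-II replicate 3.

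Eif2ak3 (ENSMUSG00000031668, chr6:70844515-70905245, plus strand) encodes PERK, the kinase of eIF2 alpha in the ER membrane. Its normalized counts were 456, 521 and 541 in DMSO against 517, 517 and 499 in SKI-II. The SKI-II libraries lay between the lowest and the highest DMSO library. The fitted log2 fold change was 0.016 (SE 0.13), and its interval of -0.28 to 0.31 holds changes from 0.825-fold to 1.24-fold (adjusted p = 0.938). Without DMSO replicate 1 the value was -0.069 (adjusted p = 0.744). These counts measure the amount of the PERK mRNA and not its kinase activity.

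Eif2ak2 (ENSMUSG00000024079, chr17:78852564-78882573, minus strand) encodes PKR, the kinase that double-stranded RNA switches on, and is itself induced by interferon. It had 1272, 790 and 836 normalized counts in DMSO against 516, 496 and 358 in SKI-II. DMSO replicate 1 was well above the others, and the highest SKI-II library was still below the lowest DMSO library. The fitted log2 fold change was -1.08 (SE 0.21, interval -1.55 to -0.62, adjusted p = 0.00312), which is 0.472-fold. Without DMSO replicate 1 it was -0.85.

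The remaining kinases did not pass the test. Eif2ak1 (ENSMUSG00000029613, chr5:143817788-143904251, plus strand), the kinase HRI, had 966, 945 and 865 normalized counts in DMSO against 1233, 1074 and 993 in SKI-II. The groups did not overlap, and the log2 fold change was 0.25 (interval -0.04 to 0.53, adjusted p = 0.153). Its exons share 487 bases, 8.59% of their length, with Aimp2 on the opposite strand and 172 bases, 3.03%, with Ankrd61, also opposite, and whether the counting used strand is not given in the sources used here. Aimp2 itself had a log2 fold change of -0.18 (adjusted p = 0.481), and Ankrd61, with 110 counts in all libraries together, one of -0.83 (adjusted p = 0.132). The transcripts Gm26637, Gm43292 and Gm26616, which lie opposite to exons of Eif2ak2, Eif2ak3 and Ppp1r15b, had 31, 34 and 15 counts in all libraries together. Eif2ak4 (ENSMUSG00000005102, chr2:118388618-118475234, plus strand), the kinase GCN2, had 1061, 869 and 663 normalized counts in DMSO against 744, 702 and 632 in SKI-II. DMSO replicate 1 was again the highest library, and the groups overlapped. Its log2 fold change was -0.32 (interval -0.71 to 0.07, adjusted p = 0.173). It was -0.16 without DMSO replicate 1, and it passed the test without DMSO replicate 3, at -0.48 (adjusted p = 0.0312).

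Eif2s1 (ENSMUSG00000021116, chr12:78861819-78887010, plus strand) encodes eIF2 alpha, the common substrate of the 4 kinases. Its normalized counts were 2583, 2594 and 2979 in DMSO against 1806, 2317 and 2380 in SKI-II. The SKI-II libraries were all below the DMSO libraries, with replicate 1 the lowest. A log2 fold change of -0.33 (SE 0.14, interval -0.63 to -0.02) did not pass the adjusted test (adjusted p = 0.0870). Without SKI-II replicate 1 it was -0.22 (adjusted p = 0.201).

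Ppp1r15b (ENSMUSG00000046062, chr1:133131143-133139783, plus strand) encodes CReP, the subunit that removes the phosphate of eIF2 alpha in unstressed cells. It had 2298, 2081 and 2021 normalized counts in DMSO against 1113, 1242 and 949 in SKI-II. The groups stood far apart and each was tight. The log2 fold change was -0.95 (SE 0.13, interval -1.25 to -0.66, adjusted p = 0.000485), which is 0.516-fold. It is the member with the lowest adjusted p of the 10.

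**Figure D2:**
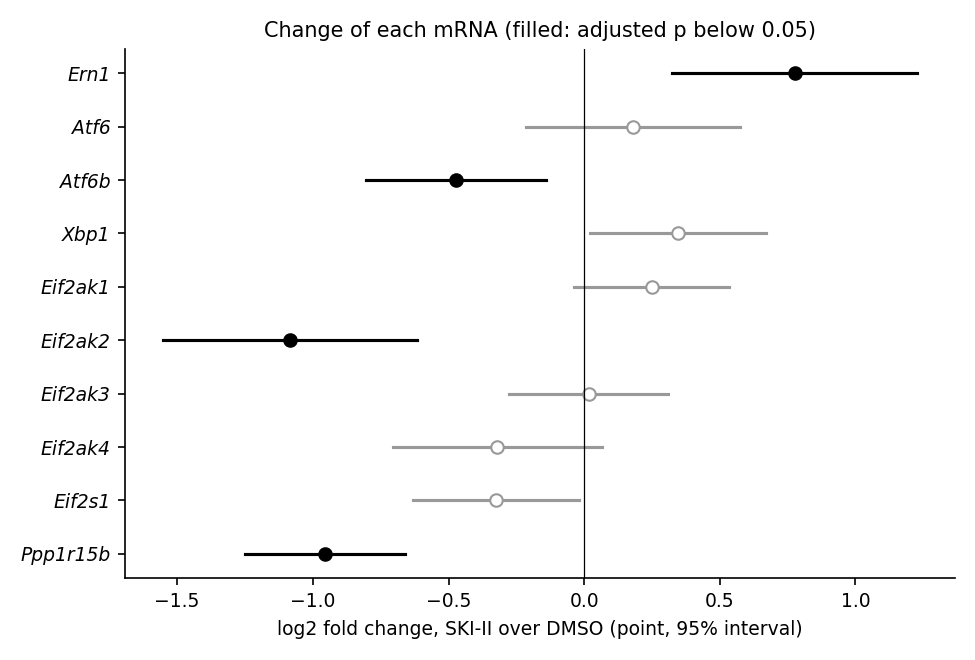
Log2 fold change of SKI-II over DMSO (x axis) of the 10 mRNAs, with the fitted value as a point and its 95% interval as a line. Filled points passed an adjusted p of 0.05: Ern1 to the right of 0, at 0.78, and Atf6b, Eif2ak2 and Ppp1r15b to the left, at -0.47, -1.08 and -0.95.

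DMSO replicate 1 stood apart from the other control libraries in several of these genes. It was low for Ern1 and Atf6 and high for Eif2ak2 and Eif2ak4. Its chi-square per degree of freedom against DMSO replicates 2 and 3 was 15.4 and 50.2, against 19.1 between those 2 libraries. The pairs of SKI-II libraries stood at 29.7, 31.3 and 58.1. The calls of Ern1, Eif2ak2 and Ppp1r15b held when any of the 6 libraries was left out.

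Levels were compared between genes per length, as RPKM, which scales counts by library size and by the length of the merged exons. In DMSO the order of the means ran from Atf6b at 98.8 ± 12.04 (SD, n = 3 here and below) through Xbp1 at 41.3 ± 5.11, Eif2s1 at 34.2 ± 2.85, Atf6 at 33.0 ± 7.98, Ppp1r15b at 23.7 ± 1.62 and Ern1 at 13.4 ± 4.04 to the kinases. Eif2ak2 stood at 11.8 ± 3.24, Eif2ak1 at 10.2 ± 0.582, Eif2ak4 at 7.22 ± 1.66 and Eif2ak3 at 5.22 ± 0.460. The PERK mRNA was thus the least abundant of the 10 in both groups, with 5.28 ± 0.104 in SKI-II, though its range met that of Eif2ak4 in DMSO and those of Eif2ak2 and Eif2ak4 in SKI-II. Among the neighbours in the DMSO order, the ranges were apart between Atf6b and Xbp1, between Ppp1r15b and Ern1 and between Eif2ak1 and Eif2ak4, and they overlapped in the other 6 steps.

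In SKI-II, Atf6b at 71.2 ± 10.4 and Xbp1 at 52.4 ± 7.96 no longer had separate ranges. Atf6 followed at 37.3 ± 2.55, Eif2s1 at 27.3 ± 3.96, Ern1 at 23.0 ± 1.32, Ppp1r15b at 12.3 ± 1.63, Eif2ak1 at 12.1 ± 1.34, Eif2ak4 at 5.78 ± 0.471 and Eif2ak2 at 5.56 ± 1.05. Ern1 stood below Ppp1r15b in every DMSO library and above it in every SKI-II library. With the length of the longest annotated transcript in place of the merged exons, Xbp1 came before Atf6b in SKI-II, and Eif2ak2 became the lowest of the 10 there.

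**Figure D3:**
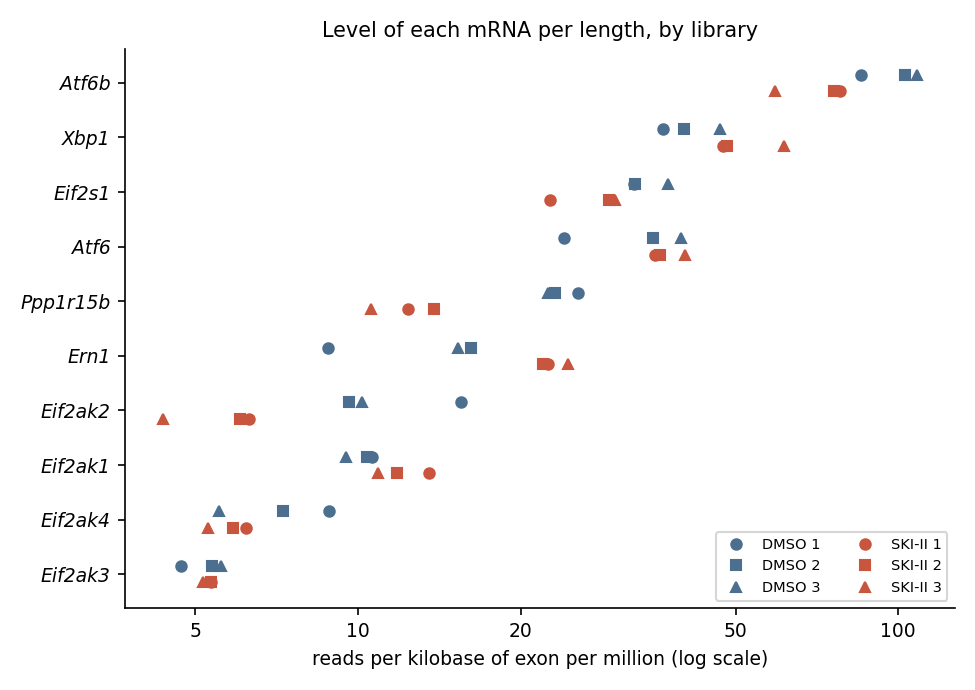
Level per length (x axis, RPKM or reads per kilobase of merged exons scaled to library size, log scale) of the 10 mRNAs by library, DMSO in blue and SKI-II in red, ordered by the DMSO mean. Atf6b is at the top with a DMSO mean of 98.8 and Eif2ak3, the PERK mRNA, at the bottom with 5.22.

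The make-up of the eIF2 alpha kinase mRNAs was worked out for each library. Of the summed level of the 4 kinases per length, PKR (Eif2ak2) held 39.1%, 29.5% and 33.0% in DMSO replicates 1 to 3, against 20.02%, 20.8% and 16.9% in SKI-II. HRI (Eif2ak1) held 26.8%, 31.8% and 30.8% in DMSO against 43.2%, 40.6% and 42.4% in SKI-II. The groups did not overlap for either share. The shares add up to the whole in each library, so a smaller PKR part makes the other parts larger. The level of Eif2ak1 itself was 10.2 ± 0.582 in DMSO and 12.1 ± 1.34 in SKI-II, and its change did not pass the test. The PERK share was 15.5 ± 3.25% in DMSO and 18.5 ± 1.53% in SKI-II, and the GCN2 share was 20.8 ± 2.48% and 20.2 ± 0.369%, with overlap in both. The summed level itself was 34.4 ± 4.68 in DMSO and 28.7 ± 2.85 in SKI-II, and its ranges overlapped.

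**Figure D4:**
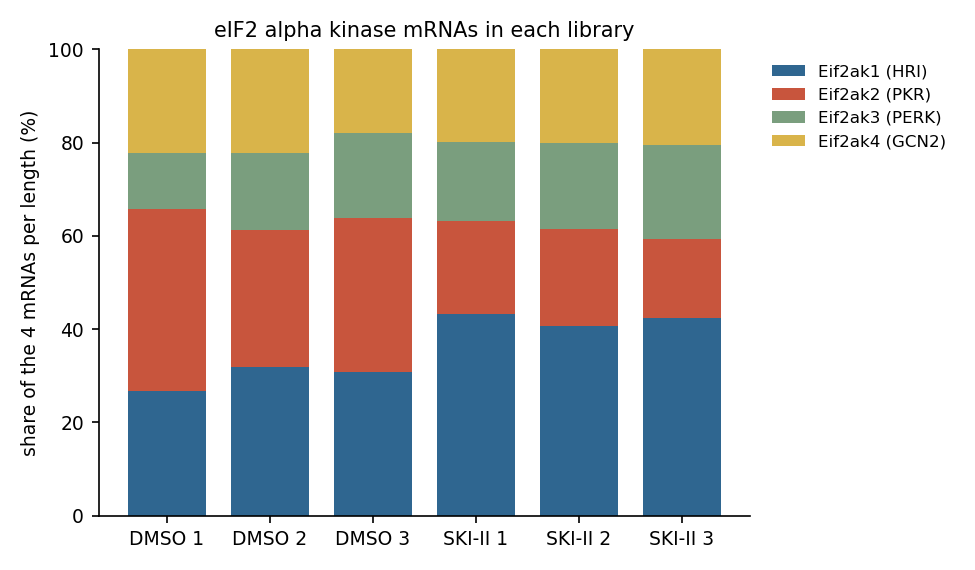
Share (y axis, percent, from 0) of each eIF2 alpha kinase mRNA in the summed level per length of the 4 kinases, 1 bar per library. The HRI part (Eif2ak1, bottom) covers 26.8% to 31.8% of the DMSO bars and 40.6% to 43.2% of the SKI-II bars, and the PKR part (Eif2ak2, above it) is narrower in SKI-II. The parts add up to the whole, and the change of Eif2ak1 itself did not pass the test.

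Ratios of levels per length within a library set partners side by side, for 6 pairs. None of the 6 was among the comparisons planned beforehand, so all are taken as chosen after the values were seen. The ratio of Ern1 to Eif2ak3, the kinase sensors of the ER membrane, was 2.54 ± 0.596 in DMSO and 4.35 ± 0.338 in SKI-II. Atf6 over Atf6b was 0.330 ± 0.0427 and 0.537 ± 0.125. Eif2ak1 over Eif2ak2 was 0.899 ± 0.199 and 2.20 ± 0.279. The stress-induced phosphatase subunit Ppp1r15a over the constitutive Ppp1r15b was 0.595 ± 0.242 and 10.1 ± 3.18. In these 4 ratios every SKI-II library was above every DMSO library. The substrate over the PERK mRNA, Eif2s1 over Eif2ak3, went the other way, from 6.56 ± 0.437 to 5.17 ± 0.812, with every SKI-II library below every DMSO library. Xbp1 over Ern1 was 3.24 ± 0.862 and 2.27 ± 0.215, with overlap. An exact two-sided permutation test of 3 against 3 cannot go below p = 0.1. Each of the 5 ratios with separate groups had that p (0.12 after adjustment over the 6), and Xbp1 over Ern1 had an exact p = 0.2 (adjusted 0.2).

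The phosphatase subunits moved in opposite directions. Ppp1r15a, which encodes GADD34 and is a known target of ATF4, had 380, 805 and 777 normalized counts in DMSO against 7957, 4886 and 4518 in SKI-II (log2 fold change 3.15, SE 0.29). Per length, Ppp1r15b was the more abundant of the pair in DMSO, at 23.7 against 13.9 ± 5.04. In SKI-II it was Ppp1r15a, at 123 ± 40.0 against 12.3. The summed level of the pair was 37.6 ± 3.50 in DMSO and 135 ± 40.3 in SKI-II. Of the catalytic subunits of protein phosphatase 1, Ppp1cc was lower (log2 fold change -0.36, adjusted p = 0.0331, chosen after its values were seen), a call lost in 7 of 13 alternatives, 6 of them the libraries left out in turn, with adjusted p between 0.0549 and 0.0842. Ppp1ca and Ppp1cb did not pass in the main fit. Without DMSO replicate 1, where the call of Ppp1cc was lost, either Ppp1ca or Ppp1cb was lower.

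The partners of the sensors and of the kinases were then counted from lists of genes written by role. Some genes stand in more than 1 list, among them Dnajc3, Hspa5, Dnajb9 and Ppp1r15a, so the counts of the lists are not independent. Among 13 regulators and processing factors of the sensors, 6 were higher and 1 was lower, with a median log2 fold change of 0.43. Hspa5, the chaperone BiP that binds the lumenal side of the sensors, had 20869, 19217 and 26920 normalized counts in DMSO against 178403, 127447 and 119458 in SKI-II (log2 fold change 2.67, SE 0.22). Wfs1, which restrains ATF6, rose by 2.53 on the log2 scale. Dnajb9, a cochaperone that represses IRE1, rose by 1.88, and its DMSO replicate 1 was the lowest library. Map3k5, the kinase ASK1 that acts after IRE1 and TRAF2, rose by 1.33. Mbtps1, the protease S1P that cuts ATF6, was lower at -0.35 (adjusted p = 0.0421, chosen after its values were seen), a call lost in 8 of 13 alternatives, of which 5 left out a library (DMSO replicates 1, 2 and 3 and SKI-II replicates 1 and 3), with adjusted p between 0.0516 and 0.124. The XBP1 ligase Rtcb and the S2P gene Mbtps2 did not pass.

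Of 6 relatives of the sensors that are also anchored in the ER, 5 were tested and 3 were higher, with a median log2 fold change of 0.99. Creb3l4, a membrane-bound bZIP factor as ATF6 is, had 15, 16 and 17 normalized counts in DMSO against 120, 89 and 106 in SKI-II (log2 fold change 2.71). Creb3 rose by 1.31. The epithelial IRE1 homologue Ern2 had 1 count in all 6 libraries together, so Ern1 supplied nearly all IRE1 reads here.

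Among 11 subunits and assembly factors around eIF2, 2 were higher and 2 lower, with a median log2 fold change of -0.08. Eif5, which drives GTP hydrolysis on eIF2, had 3374, 3582 and 3381 normalized counts in DMSO against 8814, 7653 and 7561 in SKI-II (log2 fold change 1.22). Eif2s3x, the gamma subunit of eIF2, was lower at -0.68 (adjusted p = 0.00590) and the beta subunit Eif2s2 stood at -0.04 (adjusted p = 0.865). Of the subunits of eIF2B, the exchange factor that phosphorylated eIF2 blocks, Eif2b2 was higher at 0.54 (adjusted p = 0.0132, and 0.0659 without DMSO replicate 2). Eif2b1, Eif2b3, Eif2b4 and Eif2b5 did not pass, with log2 fold changes from -0.36 to 0.23. Eif2a, a separate initiation factor despite its name, was lower at -0.78.

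Of 9 activators and inhibitors of the kinases, 2 were higher and 1 was lower, with a median of -0.13. Dnajc3, the inhibitor of PKR and PERK known as p58IPK, had 1159, 1041 and 1109 normalized counts in DMSO against 2918, 2649 and 1656 in SKI-II (log2 fold change 1.13). The next genes were chosen after their values were seen. Impact, which keeps GCN1 from activating GCN2, was higher at 0.81 (adjusted p = 0.0416), with overlapping groups and a call lost in 6 of 13 alternatives, 4 of which left out DMSO replicate 2 or 3 or SKI-II replicate 1 or 2, with adjusted p between 0.0621 and 0.173. Dele1, which carries a mitochondrial stress signal to HRI, was lower at -0.57 (adjusted p = 0.0114, and 0.0545 without SKI-II replicate 2).

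The genes that the branches act on were counted in the same way. Over all lists other than markers, 121 of 128 distinct genes were tested, 55 were higher and 24 lower, which is 65.3% called. These lists hold the partners counted above and the interferon-induced genes as well as the targets. The share differed between lists: among the 11 genes around eIF2, 2 were higher and 2 lower. Of the 10 sensor and kinase genes 40% were called, near the 38% of all tested genes. The difference between the lists and the 10 genes was not tested, and the lists were chosen with earlier results of these data known. Of 24 tested genes of the ATF4 pathway, which lies after eIF2 alpha, 16 were higher and 3 lower, with a median log2 fold change of 1.03. Ddit3, the factor CHOP, had 1174, 2838 and 3440 normalized counts in DMSO against 11086, 7011 and 5675 in SKI-II (log2 fold change 1.67). Gadd45a stood at 2.74 (3.44 without DMSO replicate 3) and the mitochondrial folate enzyme Aldh1l2 at 2.64. Atf4 itself was at 0.41 (adjusted p = 0.0412), a call lost without DMSO replicate 1 or 2 or SKI-II replicate 1 or 2, with adjusted p between 0.0722 and 0.149. The 3 lower genes were Psat1, Mthfd2 and Shmt2 of serine and folate metabolism, at -0.98, -0.58 and -0.48, named after their values were seen. The call of Shmt2 was lost without DMSO replicate 2 (adjusted p = 0.0899).

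Of 15 tested ATF6 targets, 12 were higher and 0 lower by edgeR, with a median of 0.99. The count of lower genes was 0 also at an unadjusted p below 0.05 and by DESeq2 and limma-voom. Beyond Hspa5, the ER-associated degradation adaptor Sel1l stood at a log2 fold change of 1.49, the secreted ER factor Manf at 1.48 and Creld2 at 1.47. Of 23 XBP1 targets, 18 were higher and 1, Edem1, was lower, with a median of 0.89. Kdelr3, a receptor that returns proteins to the ER, stood at 2.74, but on few reads: it had 8, 6 and 11 raw counts in DMSO against 67, 85 and 29 in SKI-II, and passed the filter on low counts only through SKI-II. The translocon factor Serp1 stood at 1.62 and the coat subunit Sec24d at 1.59. Edem1, which marks glycoproteins for degradation and was named after its values were seen, was at -0.54 (adjusted p = 0.0100, and 0.0522 without SKI-II replicate 2). Of 8 mRNAs that IRE1 cuts in other systems, 4 were tested and 3 were lower, with a median of -2.18. Hgsnat had 799, 711 and 859 normalized counts in DMSO against 123, 110 and 86 in SKI-II (log2 fold change -2.90), Tapbp was at -2.26 and Bloc1s1 at -2.10. Pmp22 did not pass, at -0.29 (adjusted p = 0.135).

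**Figure D5:**
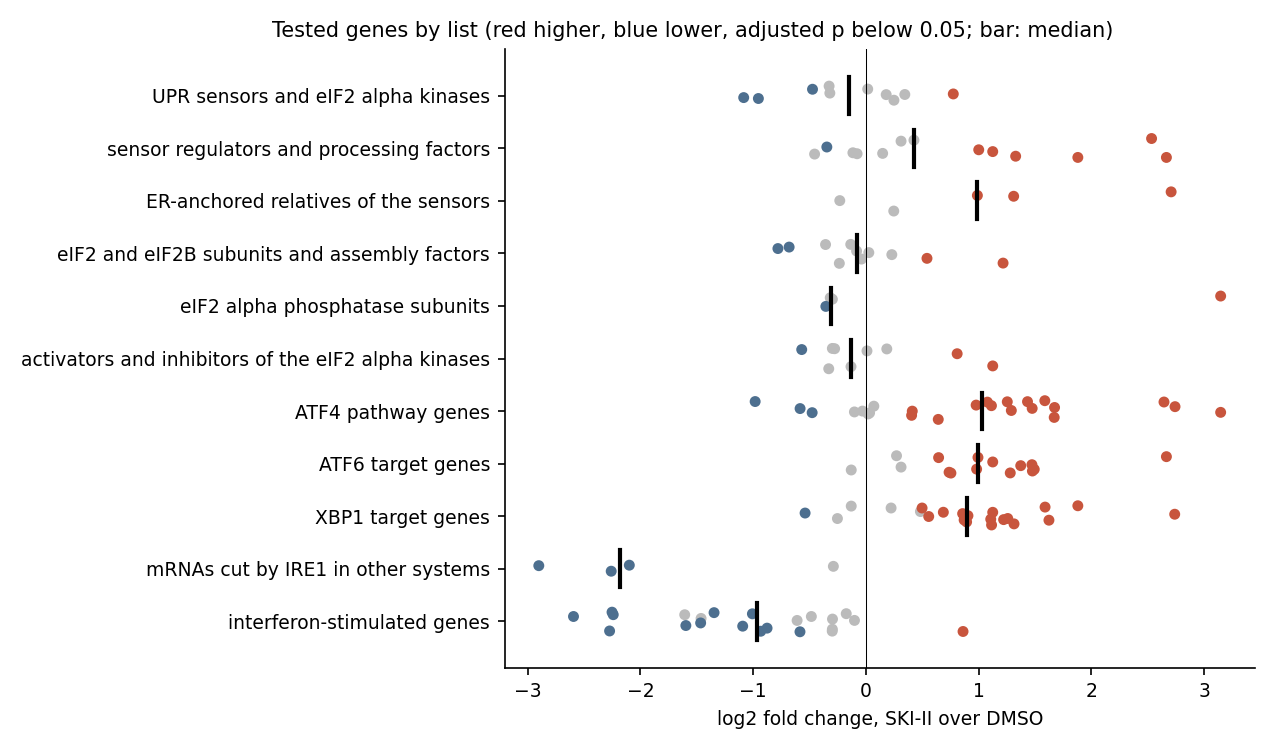
Log2 fold change of SKI-II over DMSO (x axis) of every tested gene of each list, 1 point per gene, red where higher and blue where lower at an adjusted p below 0.05, with a bar at the median of the list. The 10 sensor and kinase genes have a median of -0.15, while the targets of ATF6 and XBP1 have medians of 0.99 and 0.89 and the mRNAs cut by IRE1 elsewhere one of -2.18.

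Eif2ak2 was set beside other genes that interferon induces. Of 22 such genes, 12 were lower and 1 was higher, with a median log2 fold change of -0.97. Irf7, the factor that amplifies the interferon response, had 2224, 1649 and 2533 normalized counts in DMSO against 388, 250 and 712 in SKI-II (log2 fold change -2.24). Rsad2 stood at -2.25, Ifit3 at -2.27 and Oasl2 at -2.59. Ifit3 and Oasl2 fell under 10 counts in a SKI-II library, with 17, 4 and 18 and with 37, 8 and 25 raw counts in the SKI-II libraries. They reached the count of the filter in all libraries only in DMSO, where they are high. Both were absent from the alternative that asks for 10 counts in every library, in which 9 of the listed genes were lower. Oasl2 was at -1.67 without DMSO replicate 1 and at -3.27 without SKI-II replicate 1. The higher gene was Isg15 at 0.86 (adjusted p = 0.0415, named after its values were seen), a call lost in 6 of 13 alternatives, 5 of which left out a library (DMSO replicates 2 and 3 and each SKI-II library in turn), with adjusted p between 0.0641 and 0.150. The summed level of the 22 genes was 1142, 847 and 987 CPM (counts scaled to library size) in DMSO against 618, 497 and 677 in SKI-II. It was highest in DMSO replicate 1, the library in which Eif2ak2 was also highest, but within SKI-II it was highest in replicate 3, the library in which Eif2ak2 was lowest of all 6.

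Promoters were read to see which of these mRNAs carry known response elements near their start. RefSeq promoters on GRCm38.p6, from 250 bases before to 50 after the start, were at hand for 8 of the 10 genes, all but Atf6 and Ppp1r15b. Both strands were searched for the ER stress element ERSE, a CCAAT box 9 bases before CCACG, for ERSE-II (ATTGGNCCACG), for the UPRE bound by XBP1 and ATF6 (TGACGTGG), for the CARE bound by ATF4 and CHOP (TGATGNAA) and for the interferon element ISRE (GAAANNGAAA). ERSE was in 0.119% of 32851 promoters, ERSE-II in 0.0365%, UPRE in 0.676%, CARE in 3.97% and ISRE in 3.44%. No promoter of the 8 genes held an ERSE, an ERSE-II, a UPRE or a CARE in this window, and those of Eif2ak2 and Eif2s1 held an ISRE. Its letters lay at bases 19 to 28 after the start of Eif2ak2 and at -212 to -203 before that of Eif2s1, counted from the RefSeq starts. For Eif2s1 the annotations differ: the gene starts further upstream in GENCODE M21, so that this stretch lies inside the GENCODE gene, in the first exon of the transcript that starts furthest upstream. Of the promoters at hand for the lists, ERSE was in 8 of 14 ATF6 targets, CARE in 8 of 23 ATF4 pathway genes and ISRE in 10 of 16 interferon-induced genes, while UPRE was in 2 of 17 XBP1 targets and 0 of 14 ATF6 targets. The lines that follow give the match of each of the 2 genes and, for contrast, part of the promoter of Hspa5, the chaperone that binds the sensors. Capitals mark the ISRE in the first lines and the ERSE, at bases -65 to -47, in the last.

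Eif2ak2 (GRCm38.p6 chr17:78882535-78882564, minus strand): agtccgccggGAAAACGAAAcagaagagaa
Eif2s1 (GRCm38.p6 chr12:78861850-78861879, plus strand): cctggagcaaGAAACAGAAActtacctctc
Hspa5 (GRCm38.p6 chr2:34771930-34772069, plus strand): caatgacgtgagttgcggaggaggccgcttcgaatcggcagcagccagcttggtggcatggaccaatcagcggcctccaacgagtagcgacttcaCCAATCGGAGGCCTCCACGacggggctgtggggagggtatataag

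Both Eif2ak2 and Eif2s1 thus hold the letters of an ISRE, with log2 fold changes of -1.08 and -0.33, of which that of Eif2s1 did not pass the test. A match of letters is a description and not evidence that a factor binds there.

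The label of the cells was checked against markers. All 9 macrophage genes listed were tested, and their summed level was 8572 to 12632 CPM in DMSO and 5435 to 7788 in SKI-II. Lyz2 carried this drop: in a sum added after the values were seen, the other 8 genes came to 2935 to 3254 CPM in DMSO and 3614 to 3973 in SKI-II, the opposite direction. Of the 9 genes, 2 were higher, 4 were lower and 3, Ptprc, Csf1r and Cd68, did not pass. Fcgr1 and Cd14 were higher, at log2 fold changes of 2.17 and 1.41. Adgre1, which encodes F4/80, and the integrin gene Itgam were lower at -0.92 and -0.93 and kept that call under all 13 alternatives. Lyz2 was lower at -1.26 and Mrc1 at -1.61. Mrc1 had few reads, with 41, 15 and 41 raw counts in DMSO against 10, 6 and 19 in SKI-II, was not part of the alternative that asks for 10 counts in every library, and passed the filter through DMSO, where it is high. Its call was lost in 4 alternatives, which left out DMSO replicate 1 or 3 or SKI-II replicate 1 or 2, with adjusted p between 0.0535 and 0.0843. Markers of other cell types, 14 genes, summed to 3.08 to 7.40 CPM in DMSO and to 3.97 to 7.96 in SKI-II, and Epcam, Krt8, Krt18, Ms4a1 and Ly6g were among those at 0 in all libraries. Whether the changes of these macrophage genes have a part in the values of the sensors was not tested.

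For each of the called genes, the tested genes with the most similar course over the 6 libraries were found by the root mean square difference of centred log2 normalized counts, among the 9582 genes whose mean reached 100. For Ern1 these were Nfil3 (0.106), Osgin2 (0.126) and Tgif1 (0.132). Those of Ppp1r15b were Plekhg5 (0.0444), Retsat (0.0593) and Slc25a13 (0.0656). Eif2ak2 was nearest to Fam20c (0.107), Fasn (0.126) and Rnaseh2c (0.132). Atf6b was nearest to Slc17a5 (0.0631), Tmem129 (0.0692) and Furin (0.0694).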

How the data were processed

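Total RNA of RAW264.7 cells was enriched for poly(A) RNA and sequenced in 3 DMSO and 3 SKI-II libraries. The values used here are the raw counts of reads per Ensembl gene that the authors deposited, and normalized expression values of the study were not used here. The submitters' processing notes name Trimmomatic 0.36, STAR 2.5.2b, featureCounts, Subread 1.5.2 and DESeq2. The sources used here do not give the genome build, the annotation or the use of strand. Sample labels gave the groups and replicate numbers, and the text of the study the dose and time. Library totals ran from 12495957 to 20050677 counts, with TMM factors of 0.941 to 1.05. The chi-square per degree of freedom between libraries of a group, over genes with at least 20 counts, was 15.4 to 58.1, so each library counted as 1 replicate.

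Gene names and positions are those of GENCODE M21 on GRCm38, which named 49056 of 49315 identifiers; the rest held 0.0102% of the counts. Symbols were matched also through RefSeq synonyms. Groups were compared in R 4.3.3 by the edgeR 4.0.16 quasi-likelihood F test after TMM scaling, with the default filter on expression by group (minimum count 10, minimum total 15) and Benjamini-Hochberg adjustment over 12274 genes. To give normalized counts, each count was divided by its TMM-scaled library size relative to the mean over the libraries. Levels per length divide CPM by the merged exon length. Likeness used a pseudocount of 1. The programs were tested first on simulated data with planted changes larger than those of the members, so that run does not bear on changes of their size.

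The members and the 12 gene lists were chosen with earlier results of these data known. The lists were written from general knowledge and get no test of their own. Named genes are the members, in each list up to 4 genes per direction called with a log2 fold change past 1, Hspa5, Ppp1r15a, Dnajc3, Atf4, Ddit3, Ern2, the eIF2 and eIF2B subunits, and for each called member the 3 genes of most similar course. All other genes named were chosen after their values were seen. Alternatives were DESeq2 1.42.0, limma-voom (limma 3.58.1), RLE scaling, library size alone, no filter, a minimum of 10 counts in all libraries, leaving out each of the libraries, a block for the replicate number, a fold change threshold, and the longest transcript as length. Figures were drawn with matplotlib 3.10.9.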

Additional observations from a re-analysis of the deposited data

How the results depend on the processing

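Ern1, Eif2ak2 and Ppp1r15b kept direction and call under all 13 alternative fits, with log2 fold changes of 0.53 to 0.92, -1.22 to -0.85 and -1.05 to -0.86. Atf6 and Eif2ak3 changed sign without DMSO replicate 1, to -0.017 and -0.069, and reached 0.33 and 0.065 without DMSO replicate 3, none of these past the test. With a log2 fold change threshold of 1 added, 1 of the 10 genes was called in place of 4, 0 higher in place of 1 and 1 lower in place of 3, with 1929 in place of 4668 of all tested genes and 46 in place of 79 of the list genes. With a library left out, 3 to 5 of the 10 were called, 1 to 2 higher and 2 to 3 lower, with 3273 to 4614 of all genes and 64 to 80 of the list genes. Fewer libraries were then fitted, and the cause of each change was not tested.

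With the replicate number as a block, 2 of the 10 were higher and 4 lower, with 5584 of all genes and 86 of the list genes called. Xbp1 (adjusted p = 0.0208) and Eif2s1 (adjusted p = 0.0336) then passed. Of the listed phosphatase subunits, 3 were then lower, Ppp1ca and Ppp1cb among them. The labels share only a number and do not call the libraries pairs, so the samples were not taken as pairs. Deviations from the group means correlated at 0.281, -0.0494 and 0.534 between libraries of the same number. DMSO replicate 1 was at 0.401 with SKI-II replicate 2 and at -0.557 with replicate 3. DMSO replicate 2 was at 0.0412 and -0.00311 with SKI-II replicates 1 and 3. DMSO replicate 3 was at -0.290 and -0.358 with SKI-II replicates 1 and 2. Whether the libraries pair by number was not tested. With the longest transcript as length, 4 of the 10 genes kept their rank in SKI-II, and there the PKR share was 17.4% in place of 19.3% and the GCN2 share 21.7% in place of 20.2%. Of 260 counts of called genes by list and alternative, 33 were more than 1.5 times from their main value, 28 of them lower and 5 higher. With 3 libraries a group, the interval of Eif2ak3 still holds a change of 1.24-fold.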
